A study of Mus musculus with 36 samples.

Results

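The transcripts described here encode 7 proteins that bind cytokine mRNAs and set how long those mRNAs last. They were the rows of the deposited gene count table with the names Zfp36, Zfp36l1, Zfp36l2, Zc3h12a, Zc3h12c, Rc3h1 and Elavl1, 7 of 54532 genes. They were followed in 36 RNA-seq libraries from bone marrow-derived macrophages (BMDMs) of female C57BL/6 mice, grown for 7 days with MCSF. WT cells came from Bmal1 flox/flox littermates without Cre (n = 3 per treatment), and KO cells from LysM-Cre;Bmal1 flox/flox mice (n = 6 per treatment), so that both genotypes carried the floxed alleles and deletion in the KO depended on the LysM promoter. Each culture received vehicle (DMSO), 100 µM Core Circadian Modulator (CCM), 100 nM LPS in DMSO, or LPS with CCM, for 6 h. CCM is a small molecule that binds the PASB domain of BMAL1, the clock transcription factor, and LPS is the bacterial product sensed by TLR4.

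Many inflammatory mRNAs carry AU-rich stretches or stem-loops in their 3′ UTR that mark them for rapid decay. Tristetraprolin (Zfp36) and its relatives Zfp36l1 and Zfp36l2 bind AU-rich elements and recruit the CCR4-NOT deadenylase. Regnase-1 (Zc3h12a) and Regnase-3 (Zc3h12c) are endonucleases of the same protein family, and Roquin-1 (Rc3h1) binds stem-loops and also recruits deadenylases. HuR (Elavl1) binds AU-rich elements as well and is best known for stabilising the mRNA. In macrophages these proteins limit TNF, IL-6 and other cytokines after stimulation, and several of them act on their own mRNAs.

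The nonamer TTATTTATT is the core of the AU-rich element that the Zfp36 family recognises. In the longest annotated 3′ UTR of each gene (GENCODE M21, mouse build GRCm38, sense strand only), 5 of the 7 transcripts held it at least once. Zfp36, Zfp36l1, Zfp36l2 and Rc3h1 held 1 copy each, Elavl1 held 8, and Zc3h12a and Zc3h12c held 0. Of 21037 genes with an annotated 3′ UTR, 7.66% held the nonamer. Among genes with a 3′ UTR of like length the share was 4.17% for Zfp36, 10.2% for Zfp36l1, 10.1% for Zfp36l2 and 28.2% for Rc3h1. The sites are shown beside those of 3 cytokine mRNAs, Tnf, Csf2 and Cxcl2, because factors and targets can be read by the same proteins. Those 3 held the most copies (5, 4 and 4, respectively) among the mRNAs listed here as targets of these factors. Of the other listed targets, Lif and Cxcl1 held 2 copies, Il23a and Ptgs2 held 1, and the rest held 0. Each line gives 30 bases of the 3′ UTR as DNA, 5′ to 3′, with the nonamers in capitals; overlapping copies run together.
Zfp36 (chr7:28376951-28376980, minus strand): ttatgacgactTTATTTATTgtattaagat
Zfp36l1 (chr12:80108167-80108196, minus strand): aaactgttggaTTATTTATTttagaaattc
Zfp36l2 (chr17:84184914-84184943, minus strand): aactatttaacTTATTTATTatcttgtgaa
Rc3h1 (chr1:160970042-160970071, plus strand): tactttactcaTTATTTATTgagatgagga
Elavl1 (chr8:4285782-4285811, minus strand): gaaaaTTATTTATTTATTTATTTATTttta
Tnf (chr17:35199674-35199703, minus strand): ttaTTATTTATTTATTATTTATTTATTtgc
Csf2 (chr11:54247323-54247352, minus strand): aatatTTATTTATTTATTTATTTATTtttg
Cxcl2 (chr5:90905325-90905354, plus strand): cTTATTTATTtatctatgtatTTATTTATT
The Elavl1, Tnf and Csf2 windows each held 4 overlapping or adjoining copies and the Cxcl2 window 2, whereas Zfp36, Zfp36l1, Zfp36l2 and Rc3h1 had a single copy. A match describes the letters only, and binding was not measured.

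BMAL1 binds the E-box CACGTG, a palindrome that reads the same on both strands. It was not found in the RefSeq promoter windows (GRCm38.p6) of the 6 members with an entry, which left out Zfp36l2, while 7.15% of all 32851 windows of that length held it. This says only that these letters are not in these windows.

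Library totals were 13469262 to 28288923 counts. CPM, the counts of a gene relative to its library total and scaled by TMM so that most genes centre on no change, is used for levels within a gene, and CPM per kb of the deposited gene length for levels between genes. Macrophage markers were present throughout, with Csf1r at 1232 CPM or more and Lyz2 at 5862 CPM or more in each library. The summed B cell, T cell and dendritic cell lists stayed at 9.76 CPM or less, with Cd3g at 0 in 9 libraries. The neutrophil list summed to 425 to 1151 CPM and the fibroblast list to 300.4 to 1648 CPM. Of the neutrophil markers, S100a8 was at 97.4 CPM or more, S100a9 at 135 CPM or more and Ngp at 97.0 CPM or more in each library. Ly6g did not pass 0.562 CPM, and the rest of that list was detected in every library. In bulk samples, fewer cells of a type and less RNA per cell cannot be told apart. Bmal1 itself was at 7.52 to 12.9 CPM in WT and 2.02 to 10.8 CPM in KO libraries, which overlapped; these counts sum all exons, so they do not check the deletion of the floxed part.

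The 4 KO libraries with replicate number 6 stood apart. The SD of their log2 levels from the treatment median was 0.974 to 1.26, against 0.139 to 0.283 in 30 other libraries. Their mitochondrial share was 0.255 to 0.449% against 0.948 to 1.57%, and they detected 15993 to 17308 genes against 19617 to 21624. Their deviation followed transcript length with a Spearman rho across genes of -0.64 to -0.58, against -0.50 to 0.39 in those 30. Their T cell list summed to 2.13 to 3.48 CPM against 0.104 to 1.16 CPM. Other lists were high too, with overlap: neutrophil at 1111 to 1151 against 425 to 1148 CPM, B cell at 4.55 to 9.76 against 1.21 to 4.85 CPM. The erythroid list was at 4.78 to 11.1 against 1.15 to 7.23 CPM. Macrophage and fibroblast lists lay inside the range of those 30, and the dendritic cell list overlapped it. KO LPS+CCM replicates 2 and 5 lay between, at an SD of 0.344 and 0.605, with a length rho of -0.63 and -0.65. Several members were low in replicate 6 in the same way: under vehicle the mean of the other 5 KO libraries was 9.57-fold above it for Zc3h12c, 4.04-fold for Zfp36l2, 2.78-fold for Rc3h1 and 2.05-fold for Zfp36l1. The part of RNA quality or cell composition in these levels was not tested. For the members, KO values or ranges without replicate 6 are given beside those with all 6 replicates.

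**Figure D1:**
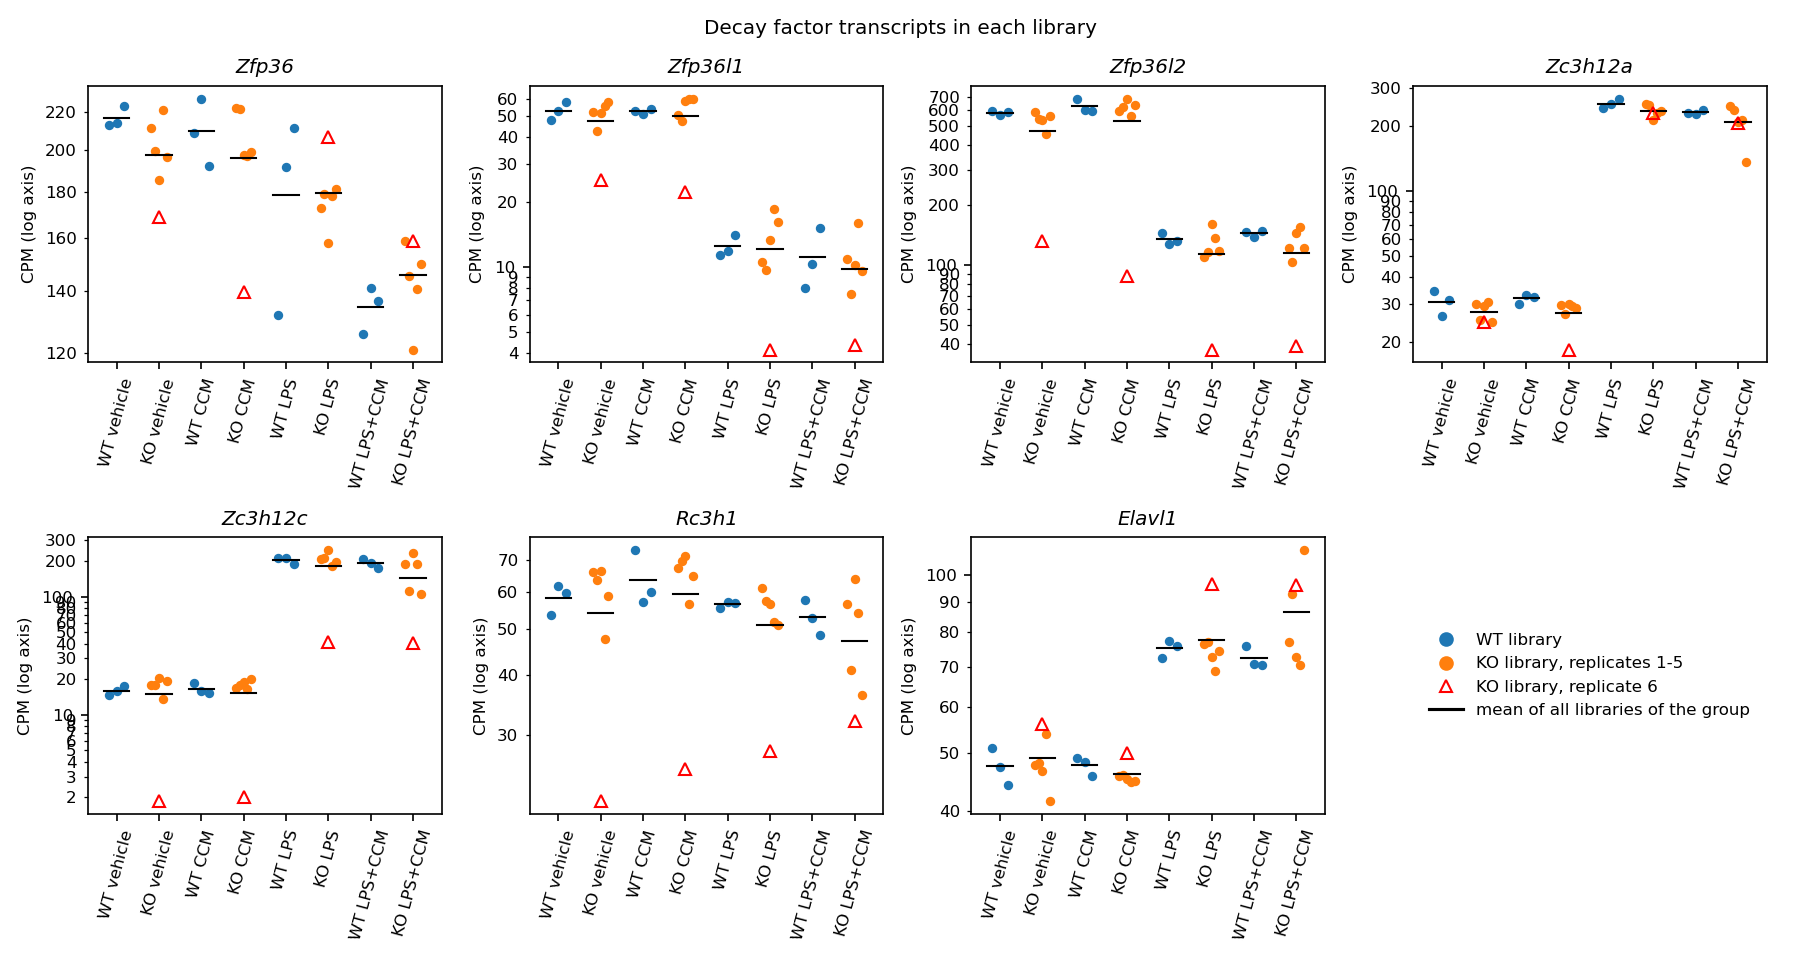
Level of each decay factor transcript in CPM (log axis) in the 36 libraries, by treatment and genotype; lines are group means over all libraries and open triangles are KO replicate 6. Zc3h12a and Zc3h12c sit high in every LPS-treated group, Zfp36l1 and Zfp36l2 sit low, and replicate 6 lies far below the other KO libraries for Zc3h12c and Zfp36l2.

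LPS split the 7 transcripts into 3 patterns in WT BMDMs. Both Regnase transcripts and Elavl1 rose, Zfp36l1 and Zfp36l2 fell, and Zfp36 and Rc3h1 did not pass the test. In WT, 5 of 7 members were called by edgeR at an adjusted p of at most 0.05, where 63.0% of all 14501 genes tested were called, so that the share by itself does not set the members apart. In KO BMDMs 5 of 7 were called (47.1% of 13648 genes; 71.6% with the replicate number as a block, with 5 members still called).

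Zc3h12c, which encodes Regnase-3, had the largest change of the 7. Its level was 14.8, 15.8 and 17.4 CPM in WT vehicle and 211, 210.1 and 188 CPM in WT LPS replicates 1, 2 and 3. All LPS-treated WT libraries lay far above all vehicle-treated ones. The log2 fold change was 3.69 (SE 0.0874, edgeR adjusted p = 2.47e-10). In KO the vehicle level had a lowest, median and highest value of 1.86, 17.9 and 20.3 CPM and the LPS level of 41.3, 202 and 248 CPM, without overlap. The KO log2 fold change was 3.57 (SE 0.499, edgeR adjusted p = 5.15e-05), and 3.56 (SE 0.116) without replicate 6, which gave the lowest value in both groups.

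Zc3h12a encodes Regnase-1, which cleaves Il6, Il12b and other mRNAs at stem-loops. It was at 34.6, 26.4 and 31.2 CPM in WT vehicle and at 242, 253 and 269 CPM in WT LPS. The groups did not overlap, and the rise was 3.08 on the log2 scale (SE 0.0900, edgeR adjusted p = 1.10e-09). In KO it ranged from 24.7 to 30.8 CPM (median 27.3) in vehicle and from 215 to 253 CPM (median 233) in LPS. Replicate 6 was inside the range of the other KO LPS libraries for this gene. The KO log2 fold change was 3.10 (SE 0.0930, edgeR adjusted p = 4.21e-11), and 3.07 (SE 0.0746) without replicate 6.

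Zfp36l2, the most abundant family member in resting cells, was at 589.8, 564 and 588 CPM in WT vehicle and at 144, 127 and 131 CPM in WT LPS. The highest LPS library was far below the lowest vehicle library, and the log2 fold change was -2.08 (SE 0.0636, edgeR adjusted p = 1.49e-09). In KO the lowest, median and highest values were 132, 539 and 585 CPM in vehicle and 37.6, 117 and 161 CPM in LPS. The groups overlapped only through replicate 6, whose vehicle library was at the 132 CPM. The KO log2 fold change was -2.05 (SE 0.355, edgeR adjusted p = 0.000314) and -2.06 (SE 0.110) without replicate 6.

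Zfp36l1, a relative with the same type of zinc fingers, fell to a like degree. It was at 47.8, 52.6 and 58.0 CPM in WT vehicle and 11.3, 11.9 and 14.0 CPM in WT LPS, without overlap. The log2 fold change was -2.05 in WT (SE 0.108, edgeR adjusted p = 8.58e-08). In KO, vehicle libraries had a lowest, median and highest value of 25.3, 52.0 and 58.2 CPM and LPS libraries of 4.13, 11.9 and 18.6 CPM. These groups did not overlap either, and the log2 fold change was -1.98 (SE 0.294, edgeR adjusted p = 8.84e-05), and -1.93 (SE 0.158) without replicate 6.

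Elavl1 encodes HuR. Its level was 51.0, 47.4 and 44.3 CPM in WT vehicle and 72.5, 77.4 and 75.8 CPM in WT LPS, and no library of either group lay within the other. It rose by 0.69 on the log2 scale (SE 0.0651, edgeR adjusted p = 7.45e-06). The KO libraries ranged from 41.5 to 56.1 CPM (median 48.1) in vehicle and from 68.9 to 96.4 CPM (median 75.4) in LPS, with a log2 fold change of 0.67 (SE 0.123, edgeR adjusted p = 0.000516). Replicate 6 was the highest KO library in both groups, and without it the log2 fold change was 0.63 (SE 0.0611). Elavl1 overlaps Ccl25 on the opposite strand (2284 counts over all libraries), and whether counting used strand is not given in the sources used here, so reads of the pair may not be separated.

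Zfp36 encodes tristetraprolin, the best known factor of the group. It was at 213, 214 and 223 CPM in WT vehicle and at 132, 192 and 211 CPM in WT LPS. All LPS libraries were below all vehicle libraries, but by a margin that ran from replicate 1, which was far below, to replicate 3, which was just below. The log2 fold change of -0.25 (SE 0.139) was not called (edgeR adjusted p = 0.146), and it was called without WT LPS replicate 3 (log2 fold change -0.39, edgeR adjusted p = 0.0377; 57.8% of genes called). Without WT LPS replicate 1 it was -0.07 (SE 0.0700, edgeR adjusted p = 0.410). In KO the values were 169, 198 and 221 CPM (lowest, median, highest) in vehicle and 158, 178 and 207 CPM in LPS. In KO the log2 fold change was -0.13 (SE 0.0978, edgeR adjusted p = 0.322). Replicate 6 was the lowest vehicle and the highest LPS library, and without it Zfp36 fell by 0.23 on the log2 scale (SE 0.0549, edgeR adjusted p = 0.00241), with groups that no longer overlapped. That made 6 of 7 members called, where 69.4% of 13844 genes were called.

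Rc3h1, which encodes Roquin-1, was at 53.5, 61.7 and 59.5 CPM in WT vehicle and 55.5, 57.0 and 56.6 CPM in WT LPS. The LPS libraries lay inside the vehicle range, and the log2 fold change was -0.02 (SE 0.0735, edgeR adjusted p = 0.844). In KO, vehicle libraries had a lowest, median and highest value of 21.8, 61.1 and 66.3 CPM and LPS libraries of 27.7, 54.2 and 61.1 CPM, with a log2 fold change of -0.09 (SE 0.239, edgeR adjusted p = 0.810). The KO groups overlapped with and without replicate 6, and without it the log2 fold change was -0.13 (SE 0.0936).

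The scaling set the zero of these changes. TMM placed the median of all genes at -0.05 in WT, whereas scaling by total counts alone placed it at -0.47. Relative to that median, the log2 fold changes under total counts were 3.74 for Zc3h12c, 3.13 for Zc3h12a, -2.03 for Zfp36l2, -2.002 for Zfp36l1, 0.75 for Elavl1, -0.20 for Zfp36 and 0.03 for Rc3h1. Taken from 0 instead, Zfp36 and Rc3h1 were called lower under total counts, at -0.66 and -0.43, and Elavl1 was called higher at 0.28, so that 7 of 7 members and 73.2% of genes were called.

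With CCM present in both groups, the same 5 transcripts changed in the same direction. In WT all 7 members were called in LPS+CCM against CCM (61.5% of 13907 genes), since Zfp36 and Rc3h1 passed the test here. Zfp36 was at 209, 227 and 192 CPM with CCM and at 126, 141 and 137 CPM with LPS+CCM. All 3 libraries with LPS were below all 3 without, and the log2 fold change was -0.63 (SE 0.0657, edgeR adjusted p = 1.11e-05). In KO, Zfp36 went from a lowest, median and highest value of 139.8, 198 and 222 CPM to 121, 148 and 159 CPM, and the log2 fold change was -0.41 (SE 0.123, edgeR adjusted p = 0.0158). The groups overlapped only through replicate 6, and without it the log2 fold change was -0.52 (SE 0.0915, edgeR adjusted p = 0.000362). Without any 1 of KO replicates 1, 2, 3 or 4, Zfp36 kept its direction with an edgeR adjusted p of 0.0529, 0.0815, 0.0659 and 0.0639, respectively.

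Rc3h1 was the other transcript to change sides. Its WT values were 73.3, 57.0 and 60.0 CPM with CCM and 57.6, 52.8 and 48.6 CPM with LPS+CCM, and the groups overlapped. The log2 fold change of -0.25 (SE 0.101) had an edgeR adjusted p of 0.0486, close to the threshold. It was not called without WT CCM replicate 1 (-0.14, edgeR adjusted p = 0.166), LPS+CCM replicate 2 (edgeR adjusted p = 0.118) or LPS+CCM replicate 3 (edgeR adjusted p = 0.176). In KO 6 of 7 members were called (38.2% of 13727 genes), and Rc3h1 was not (-0.31, SE 0.229, edgeR adjusted p = 0.326); without replicate 6 it was called at -0.37 (edgeR adjusted p = 0.0414), when 56.5% of genes were called.

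The other members had log2 fold changes in LPS+CCM against CCM of 3.53 for Zc3h12c, 2.87 for Zc3h12a, 0.60 for Elavl1, -2.11 for Zfp36l2 and -2.22 for Zfp36l1 in WT. In KO the corresponding values were 3.23, 2.95, 0.91, -2.20 and -2.35, and without replicate 6 they were 3.1996, 2.86, 0.92, -2.24 and -2.34. Elavl1 was highest in KO LPS+CCM replicates 5 (110.1 CPM), 6 (96.3 CPM) and 2 (92.9 CPM), the libraries that stand apart over all genes, and without these libraries its log2 fold change was 0.70 (SE 0.0479). Zc3h12a was lowest in KO LPS+CCM replicate 5, at 137 CPM against 207 to 249 CPM in the other 5. Comparisons with and without CCM used different libraries on both sides.

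**Figure D2:**
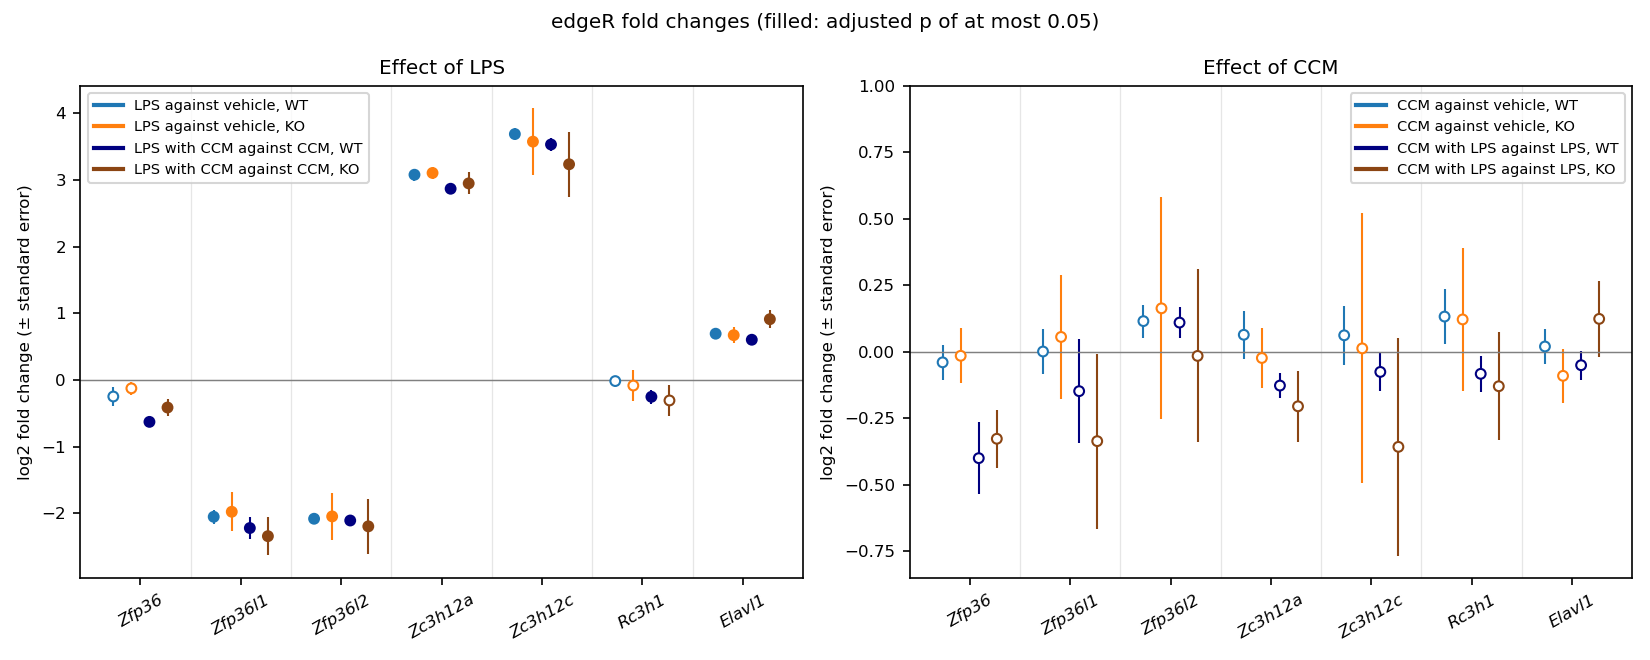
log2 fold changes from edgeR with standard errors for the 7 members, LPS comparisons on the left and CCM comparisons on the right, filled where the adjusted p was at most 0.05. LPS raised Zc3h12c by 3.69 and lowered Zfp36l2 by a log2 fold change of -2.08 in WT, while no CCM comparison has a filled point.

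CCM alone left the members without a called change. In unstimulated WT BMDMs 0 of 7 members were called by edgeR, with 0 at an unadjusted p under 0.05, where 8 of 14024 genes or 0.0570% were called. The log2 fold changes ran from -0.04 (Zfp36) to 0.13 (Rc3h1), and the lowest adjusted p was 0.575. DESeq2 and limma voom also called 0 of 7, with 2.41% and 0.0784% of genes called. In unstimulated KO BMDMs 0 of 7 were called by edgeR, DESeq2 or voom, with 0 at an unadjusted p under 0.05 by edgeR, and log2 fold changes of -0.09 (Elavl1) to 0.16 (Zfp36l2). There 0 of 13799 genes were called (0%), with 333 at an unadjusted p under 0.05 and 0.146% called by DESeq2 and 2.17% by voom. With the replicate number as a block 3.11% of genes and 0 members were called. Rc3h1 was higher with CCM in 6 of 6 same-numbered pairs, with log2 ratios of 0.03 to 0.24, but was not called with the block (0.14, SE 0.0493, edgeR adjusted p = 0.189). Zfp36l2 was higher in 5 of 6 pairs and lower in replicate 6. Without replicate 6 the KO log2 fold changes ran from -0.09 (Elavl1) to 0.19 (Zfp36l2), with edgeR adjusted p-values of at least 0.258.

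Under LPS, Zfp36 was the member with the largest difference between CCM and no CCM in WT. In WT it was at 132, 192 and 211 CPM with LPS and at 126, 141 and 137 CPM with LPS+CCM. LPS+CCM was the lower library in 3 of 3 same-numbered pairs, but the groups overlapped because LPS replicate 1 was as low as the treated libraries. The log2 fold change was -0.40 (SE 0.135, edgeR unadjusted p = 0.0137, adjusted p = 0.0861), so 0 of 7 members were called, where 11.9% of 13579 genes were called. At an unadjusted p under 0.05 there were 2 members, Zfp36 and Zc3h12a. Same-numbered WT libraries under LPS deviated together, and with the number as a block the log2 fold change of Zfp36 was -0.38 (SE 0.0685, edgeR adjusted p = 0.000533), called. Without WT LPS replicate 1 it was -0.57 (SE 0.0638, edgeR adjusted p = 0.000277), with 9.70% of genes called. Over all alternative fits by edgeR, DESeq2 and limma voom, the adjusted p of Zfp36 ran from 1.38e-09 to 0.547. The call therefore depended on the fit and on the libraries kept.

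In KO, Zfp36 ran from 158 to 207 CPM (median 178) with LPS and from 121 to 159 CPM (median 148) with LPS+CCM. LPS+CCM was lower in 6 of 6 same-numbered pairs, with log2 ratios of -0.39 to -0.12, and the groups overlapped narrowly, at 158 and 159 CPM. The log2 fold change was -0.33 (SE 0.110, edgeR unadjusted p = 0.0102, adjusted p = 0.376). It was not called, nor was any other member, where 0.112% of 13386 genes were called. Without replicate 6 the value was -0.29 (edgeR adjusted p = 0.141; 1.27% of genes called), and without LPS+CCM replicates 2 and 5 as well it was -0.31 (edgeR adjusted p = 0.0746; 3.42% of genes called). limma voom called Zfp36 in both genotypes, with an adjusted p of 0.0339 in WT and 0.0117 in KO (14.1% and 5.74% of genes called), and DESeq2 in neither (13.5% and 1.30%).

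Zc3h12a was at 242, 253 and 269 CPM in WT LPS and at 229, 229 and 238 CPM in WT LPS+CCM, lower in 3 of 3 pairs and without overlap. The difference was small, at -0.13 on the log2 scale (SE 0.0483, edgeR adjusted p = 0.125), and with the replicate block it was called at -0.13 (SE 0.0360, edgeR adjusted p = 0.0168), when 2 of 7 members and 23.7% of genes were called. In KO it was lower in 6 of 6 pairs, at -0.20 (SE 0.134, edgeR adjusted p = 0.784), with the largest gap in replicate 5. Without KO replicate 5 in either group it was -0.11 (SE 0.0959), and without replicate 6 and LPS+CCM replicates 2 and 5 it was -0.08 (SE 0.0724).

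The other 5 members had WT log2 fold changes of -0.15 (Zfp36l1), -0.08 (Zc3h12c), -0.08 (Rc3h1), -0.05 (Elavl1) and 0.11 (Zfp36l2), with edgeR adjusted p-values of at least 0.277. In KO they ran from -0.36 (Zc3h12c, SE 0.410) to 0.12 (Elavl1, SE 0.142). Without replicate 6 the values were -0.36 and 0.19, and without LPS+CCM replicates 2 and 5 as well Zc3h12c was at -0.05 (SE 0.101) and Elavl1 at -0.01 (SE 0.0526). Zfp36l2 was 144, 127 and 131 CPM in WT LPS against 146, 139 and 148 CPM in LPS+CCM, higher in 3 of 3 pairs with overlapping groups.

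**Figure D3:**
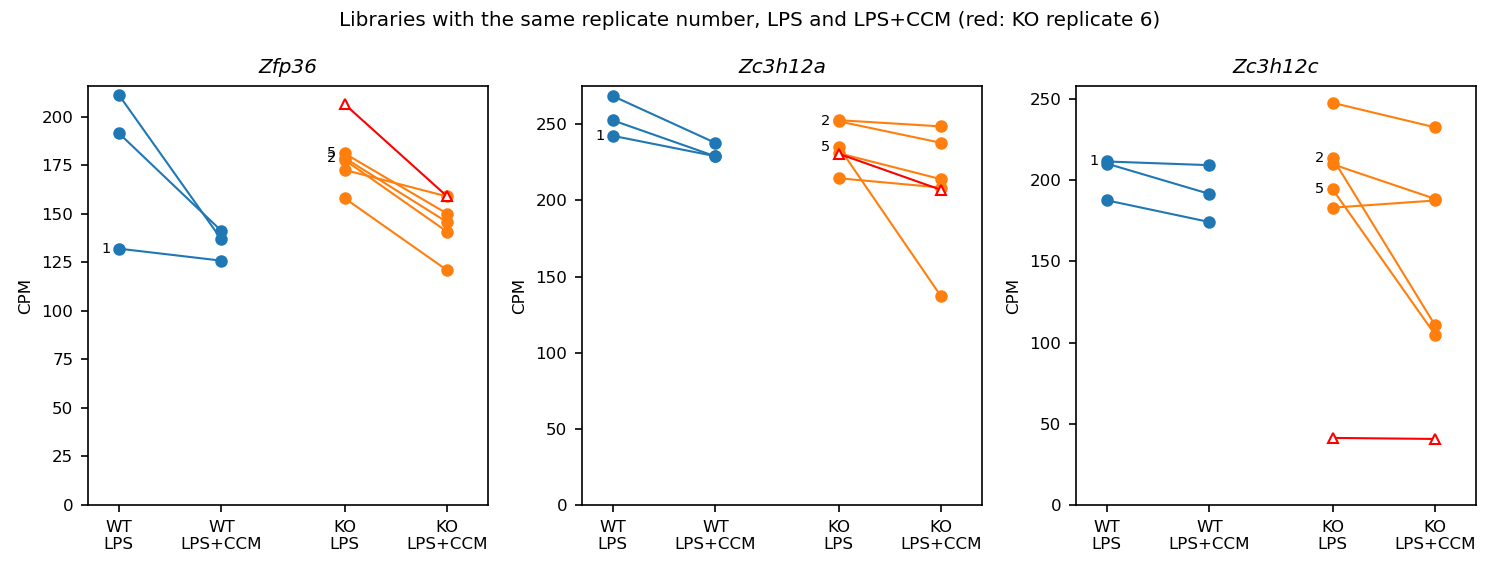
CPM of Zfp36, Zc3h12a and Zc3h12c in LPS and LPS+CCM libraries joined by replicate number, with numbers on the libraries named in the text and KO replicate 6 in red. For Zfp36 all 3 WT and 6 KO lines go down, and WT replicate 1 starts at 132 CPM, below the other WT LPS libraries.

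Tests of the differences between effects called 0 of 7 members each. For the LPS by CCM interaction in WT, Zfp36 had the largest value, -0.38 (SE 0.173, edgeR unadjusted p = 0.0481, adjusted p = 0.352; 2.09% of 14747 genes called). Without WT LPS replicate 1 it was -0.56 (edgeR adjusted p = 0.0182), with 1.23% of genes called. Over all alternative fits by edgeR, DESeq2 and limma voom, its adjusted p ran from 0.0118 to 0.99993, so the call depended on the fit. For genotype by LPS the members ran from -0.10 to 0.14 and for genotype by CCM under LPS from -0.27 to 0.19. In both, edgeR, DESeq2 and voom called 0 genes (0%), with 112 and 72 genes at an unadjusted p under 0.05 by edgeR and 0 members among them. Without replicate 6 the members ran from -0.12 (Zc3h12c) to 0.12 (Zfp36l1) for genotype by LPS and from -0.27 (Zc3h12c) to 0.25 (Elavl1) for genotype by CCM. The standard error for Zc3h12c fell from 0.674 to 0.163 and from 0.613 to 0.280 when replicate 6 was left out, and to 0.142 for genotype by CCM without LPS+CCM replicates 2 and 5 as well.

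KO and WT libraries under the same treatment gave no called member. Under vehicle the members' log2 fold changes (KO against WT) ran from -0.28 (Zfp36l2, SE 0.352) to 0.09 (Elavl1, SE 0.126). Under LPS they ran from -0.23 (Zfp36l2, SE 0.328) to 0.07 (Elavl1, SE 0.127). Without replicate 6, Zfp36l2 was at -0.09 (SE 0.0784) under vehicle and -0.05 (SE 0.113) under LPS, and Elavl1 was at 0.03 (SE 0.0784) and -0.01 (SE 0.0486). Leaving it out turned the sign of Zc3h12c from -0.04 to 0.17 (SE 0.126) under vehicle and from -0.15 to 0.06 (SE 0.0859) under LPS. The sign also turned for Rc3h1 under vehicle, from -0.07 to 0.07, and under LPS for Zfp36l1, from -0.02 to 0.14, and Zfp36, from 0.03 to -0.03. Zfp36l1 under vehicle went from -0.11 to 0.00039, close to 0. edgeR called 0 genes (0%) in either comparison, with 118 and 105 genes but 0 members at an unadjusted p under 0.05. DESeq2 called 1 gene in each (0.00370% and 0.00380%), neither a member.

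Per length, the makeup of the Zfp36 family changed with LPS. In WT vehicle, Zfp36l2 was at 164 ± 4.05 CPM per kb, Zfp36 at 62.4 ± 1.68 and Zfp36l1 at 17.7 ± 1.70 (SD, n = 3). In WT LPS they were at 38.1 ± 2.48, 51.4 ± 11.9 and 4.15 ± 0.480 CPM per kb. As a share of the family sum, Zfp36 was 25.5% ± 0.386 in vehicle and 23.7% ± 1.96 in CCM, against 54.4% ± 7.28 in LPS and 46.5% ± 1.97 in LPS+CCM. Zfp36l2 made up 67.3% ± 0.979 in vehicle and 41.2% ± 7.17 in LPS. The vehicle and LPS shares were far apart relative to their SDs, while the LPS and LPS+CCM shares lay about 1 SD of the LPS group from each other. These are shares over chosen members and carry no test.

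In KO replicates 1 to 5 the Zfp36 share was 25.8% ± 2.52 in vehicle and 23.6% ± 1.96 in CCM, against 55.2% ± 4.76 in LPS and 50.8% ± 5.87 in LPS+CCM (SD, n = 5). With replicate 6 the means were 30.03%, 28.9%, 59.9% and 55.4%. Replicate 6 had the highest share in each treatment. The Regnases shifted too: per length, Zc3h12a was 4.59 ± 0.844 times Zc3h12c in WT vehicle and 2.99 ± 0.359 times in WT LPS (SD, n = 3). In resting WT cells Zc3h12c was the least abundant of the 7 per length, at 2.34 ± 0.193 CPM per kb, and under LPS Zc3h12a was the most abundant, at 88.3 ± 4.57.

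**Figure D4:**
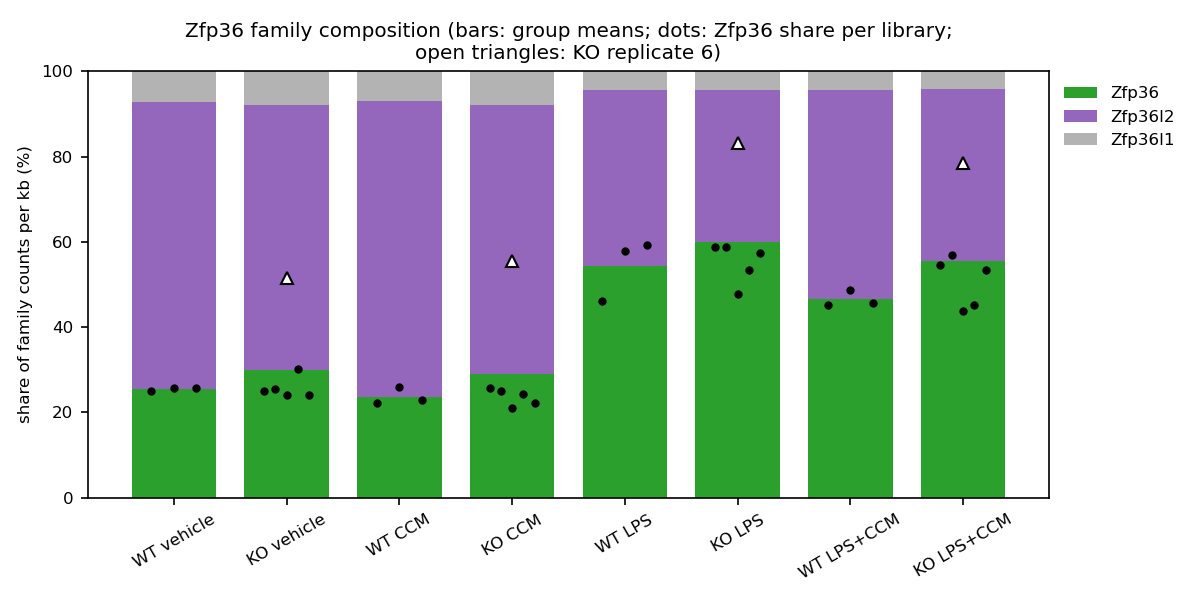
Share of Zfp36, Zfp36l2 and Zfp36l1 in their summed counts per kb (%), as group means in stacked bars, with the Zfp36 share of each library as dots and KO replicate 6 as triangles. In WT the Zfp36 share is 25.5% in vehicle and 54.4% in LPS, and each triangle lies above the dots of its group.

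Over the 8 groups, ordered by mean CPM and with KO replicate 6 left out, neighbours overlapped nearly everywhere. For Zfp36l1, Zfp36l2, Zc3h12a, Zc3h12c and Elavl1 the only neighbours whose ranges did not overlap were the ones on either side of the LPS boundary. For Zfp36 and Rc3h1 each group overlapped the next one in the order.

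The genes with the most similar pattern were found by the root mean square difference of centred log2 CPM over the 8 group means, among 11179 genes. Here the means were taken over all libraries, so the KO libraries that stood apart also weigh on the match. The match without those libraries was not tested. For Zc3h12c they were Tnfaip3 (0.0898), Malt1 (0.110) and Met (0.127). For Zc3h12a they were Gpd2 (0.0546), BE692007 (0.0704) and Birc3 (0.0759). For Zfp36l2 they were Alms1 (0.0917), Pdxk (0.0996) and Aspm (0.108), and for Zfp36l1 Mr1 (0.0480), Pdgfc (0.0748) and Sulf2 (0.0945). Zfp36, Rc3h1 and Elavl1 spanned less than 1 log2 unit and were not matched.

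The 19 mRNAs that passed the filter on low counts, of 20 listed as targets of these factors, were mostly raised by LPS. In WT 17 rose and 1 fell, where 30.6% of all genes were called higher and 32.4% lower, and the median log2 fold change was 6.18 (-0.05 over all genes). Il12b (12.65) and Il1b (10.66) had the largest changes, and Tfrc, the transferrin receptor and a Regnase-1 target, fell by 1.17. In KO 16 rose and 1 fell (22.4% and 24.7% of all genes).

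With CCM under LPS, 16 of the 19 target mRNAs fell in WT and 0 rose, where 7.78% of all genes were called lower, and the median was -0.69 (0.01 over all genes). Ptgs2, which encodes cyclooxygenase-2, fell by 1.32 (SE 0.0968, edgeR adjusted p = 4.29e-05), and Il12b, a subunit of IL-12 and IL-23, fell by 1.22. Il6 fell by 0.90, Tnf by 0.69 and Cxcl2 by 0.45. Of the mRNAs printed with nonamers, Tnf and Cxcl2 fell and Csf2 was not tested. Ptgs2 held 1 nonamer in its 3′ UTR, and Il12b and Il6 held 0. Tnfrsf4, Nfkbid and Tfrc did not pass the test, at -0.26, -0.15 and -0.03. The decay factors in the same cells had log2 fold changes of -0.40 to 0.11.

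In KO under LPS, 0 of the 19 targets were called with CCM (0.105% of genes called lower), and the median was -0.54. The mRNAs named above as falling in WT were in KO at -1.19 (Ptgs2), -1.17 (Il12b), -0.55 (Il6), -0.45 (Tnf) and -0.26 (Cxcl2). The genotype by CCM interaction under LPS called 0 genes, so calls in WT alone do not show that the genotypes differ for these targets. Without replicate 6, Ptgs2, Csf3, Il12b and Il1a fell, 4 of 19 (1.27% of genes called), and without LPS+CCM replicates 2 and 5 as well 8 of 19 fell (3.42% of genes called). The interaction of LPS and CCM in WT was called for 1 target, Ccl3 (-0.78, edgeR adjusted p = 0.0310; 2.09% of genes called), and for 0 without WT LPS replicate 1 (1.23%). Whether the decay of any of these mRNAs changed cannot be read from their levels.

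**Figure D5:**
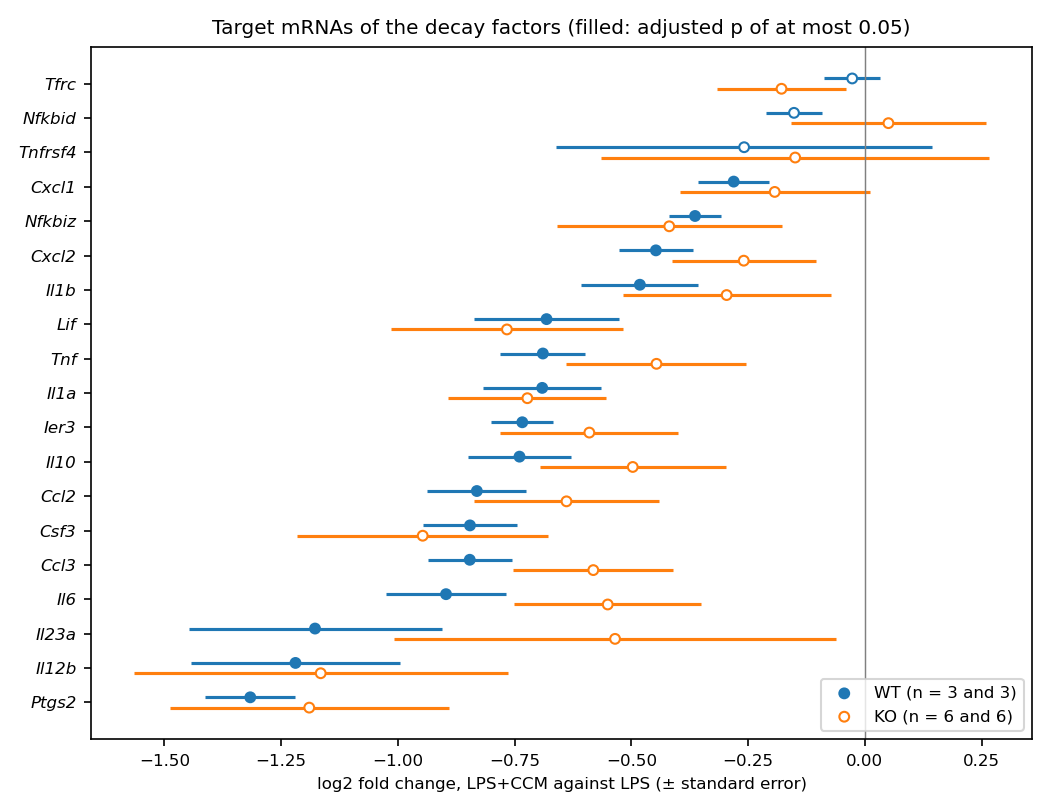
log2 fold change with standard error of LPS+CCM against LPS for the target mRNAs, WT in blue and KO (all 6 replicates) in orange, filled where the edgeR adjusted p was at most 0.05. In WT 16 points are filled, led by Ptgs2 at -1.32, and in KO none is, with Ptgs2 at -1.19.

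Other parts of the decay machinery changed with LPS in both directions. Of 14 tested other RNA-binding proteins of AU-rich elements and stem-loops, 8 rose and 4 fell in WT, where 30.6% of all genes were called higher and 32.4% lower. N4bp1, an RNase related to the Regnases, rose by 2.62 on the log2 scale and Arid5a, which stabilises Il6 mRNA, by 2.13. Zc3h12d, the Regnase-4 gene, fell by 1.08 and Tial1, a translational repressor, by 0.45. With CCM under LPS, Arid5a fell by 0.83 (SE 0.0848, edgeR adjusted p = 0.000182) and Cpeb4 by 0.39, 2 of 14 (7.78% of all genes called lower). Arid5a also had a called LPS by CCM interaction in WT (-0.71, edgeR adjusted p = 0.0352), as did the decapping enzyme gene Dcp2 (-0.48, edgeR adjusted p = 0.0354). Neither was called without WT LPS replicate 1.

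Of 18 deadenylation genes, 4 rose and 6 fell with LPS in WT, where 30.6% of all genes were called higher and 32.4% lower. For CCM under LPS 0 of these genes were called, where 11.9% of all genes were called. Cnot4, a ubiquitin ligase of the CCR4-NOT complex, rose by 0.58 and Btg1 by 0.45, while Tob1, an adaptor of the complex, fell by 1.37 and the deadenylase Cnot6l by 0.83. Of 25 decapping and exonuclease genes, 11 rose and 4 fell with LPS in WT, against the same 30.6% and 32.4% of all genes. With 63.0% of all genes called in either direction, the number called does not by itself set these 2 lists apart. Dcp2 rose by 1.85 and the 5′ to 3′ exonuclease Xrn1 by 1.27, and the exosome subunits Exosc5 and Exosc8 fell by 0.94 and 0.51. Both Xrn1 and Dcp2 fell with CCM under LPS, by 0.36 (edgeR adjusted p = 0.0146) and 0.33 (edgeR adjusted p = 0.00590). They were the only called genes of these 25, where 7.78% of all genes were called lower. The number called does not by itself set the list apart.

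Of 13 genes for kinases, phosphatases and proteases that act on the factors, 10 rose and 2 fell with LPS in WT (30.6% and 32.4% of all genes). Malt1, a protease that cuts Regnase-1 and Roquin-1, rose by 3.69 and Mapkapk2, the kinase that phosphorylates tristetraprolin, by 2.97. Mapkapk3 fell by 0.51 and Irak1 by 0.46. With CCM under LPS, 1 rose and 5 fell (4.15% and 7.78% of all genes). Mapk14, the p38 kinase upstream of Mapkapk2, rose by 0.37 (SE 0.0456, edgeR adjusted p = 0.000511), whereas Mapkapk2 itself fell by 0.22 (edgeR adjusted p = 0.00585). Malt1 fell by 0.32 and Btrc, a ubiquitin ligase subunit that acts on Regnase-1, by 0.31. In KO, 0 genes of these 4 lists were called for CCM under LPS (0.112% of all genes). The KO log2 fold changes were -0.77 for Arid5a, -0.56 for Xrn1, -0.49 for Malt1, -0.31 for Dcp2, -0.31 for Btrc and 0.27 for Mapk14, each in the direction of WT, with edgeR adjusted p-values of at least 0.212. A call in WT alone does not show that the genotypes differ, and the genotype by CCM interaction called 0 genes. Without replicate 6 there was 1 called in KO, in the list of other RNA-binding proteins (1.27% of all genes).

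The genes lie at chr7:28376784-28380253 (Zfp36), chr12:80107754-80113013 (Zfp36l1), chr17:84183931-84187947 (Zfp36l2), chr4:125118423-125127840 (Zc3h12a), chr9:52111344-52168572 (Zc3h12c), chr1:160906418-160974978 (Rc3h1) and chr8:4285382-4325413 (Elavl1) in GRCm38. Besides Elavl1, Zfp36 overlaps Gm44710 (311 counts over all libraries), Zfp36l1 overlaps Gm26669 (281 counts), Zc3h12c overlaps Mir6244 (0 counts) and Rc3h1 overlaps 3 predicted genes of 15 to 47 counts. Zfp36l2 and Zc3h12a overlap no other annotated gene.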

How the data were processed

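BMDM mRNA was enriched with poly(T) beads. Per the submitters' processing notes, the authors used fastp, HISAT2 2.0.5, featureCounts 1.5.0-p3 and the build mm10 (GRCm38). The deposited values are raw counts per gene, with a gene length.

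The groups of a comparison were fitted alone, over all genes, with edgeR 4.0.16 in R 4.3.3 (filterByExpr, TMM, glmQLFit, glmQLFTest, two-sided, no block), with Benjamini-Hochberg adjustment and calls at 0.05. Interactions were terms of 1 fit. Alternatives were RLE, total counts, no filter, DESeq2 1.42.0, limma 3.58.1 (voom with quality weights), a replicate block, 1 fit of 36 libraries and leaving out replicates. The fits were tested on simulated counts. Log2 CPM used a prior count of 2.

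Same-numbered libraries deviated together over all genes (each correlation over 0.1) in LPS against vehicle in KO (0.298 to 0.830), CCM against vehicle in KO (0.337 to 0.844) and CCM under LPS in WT (0.151 to 0.360). The median correlation of differently numbered libraries was 0.172, 0.221 and -0.132, respectively. In KO that median also passed 0.1, so the bar by itself does not show pairing there. The labels do not tie a number to a mouse across treatments, so whether same-numbered libraries share a mouse is not known. For these data the paper gives its n alongside the use of female mice, and it calls the WT replicates biological. The p-values measure the spread between the samples of a group. Each pair of libraries of a group differed by more than counting noise (lowest chi-square over its degrees of freedom 4.34).

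The members and lists were chosen with earlier results of these data known. Named were all 7 members, up to 2 called genes per direction and list, targets of at least 1 CPM in WT LPS, and the 3 closest patterns.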

Additional observations from a re-analysis of the deposited data

Results flagged for a closer look

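Within the KO groups of 6 libraries, 28 sets of member values were examined for a library far from the other 5, and 13 had one. Chance gives about 1 in 20, and 12 of the 13 were replicate 6, whose libraries are related, so these are not separate events.

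Replicate 6 was the lowest library for Zc3h12c in vehicle (1.86 CPM), CCM (2.02 CPM) and LPS (41.3 CPM), and for Zfp36l2 in vehicle (132 CPM) and CCM (88.3 CPM). In the CCM group it was also the lowest for Zfp36 (139.8 CPM), Zfp36l1 (22.1 CPM), Zc3h12a (18.4 CPM) and Rc3h1 (25.5 CPM), and in LPS for Rc3h1 (27.7 CPM). It was the highest for Elavl1 in CCM (50.1 CPM) and LPS (96.4 CPM). The other library was KO LPS+CCM replicate 5, the lowest for Zc3h12a (137 CPM). No member had a called difference between effects.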

How the results depend on the processing

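The number of members called kept within 1.5 times of its value under all alternatives for the 4 LPS comparisons, for CCM alone, for both genotype comparisons and for both genotype interactions. For CCM under LPS it was 0 and became 1 in WT with voom, without the low-count filter, under total counts alone (Zfp36l2, adjusted p = 0.0471) and without WT LPS replicate 1 (range 0 to 1 over replicates left out), and 2 with the replicate block. In KO it became 1 with voom and 1 with the replicate block, where the numbers were not shown to pair the libraries (lowest correlation -0.10) and Zfp36 had an edgeR adjusted p of 0.0248. For the LPS by CCM interaction in WT it became 1 without the filter and without WT LPS replicate 1 (range 0 to 1). The block also called Zfp36 for LPS in WT (-0.28, edgeR adjusted p = 0.0338), where pairing was not shown; it changed no other call of a member.

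Some single values changed sign: Rc3h1 for LPS in WT was 0.019 with RLE, 0.011 with DESeq2 and -0.072 to 0.048 over replicates left out. For CCM under LPS in WT, Zc3h12c was 0.0040 and Elavl1 0.029 under total counts, and Zfp36l1 ran from -0.43 to 0.030 over replicates left out. In KO, Zfp36l2 was 0.025 under total counts, 0.11 with voom, 0.0023 in 1 fit of all 36 libraries, -0.060 to 0.031 over replicates left out, and 0.13 without replicate 6 and LPS+CCM replicates 2 and 5, a choice made after seeing the data. Under that choice Rc3h1 was 0.065 and Elavl1 -0.011. The causes were not tested. Of 579 single values under alternatives, which left out the genotype comparisons, 532 kept direction and side of the threshold. Of the rest, 15 changed sign, 20 gained a call and 12 lost one. With 3 WT libraries and a wide KO spread, a value that missed the threshold does not show that groups were alike.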
